A study of Drosophila melanogaster with 20 samples.

Results

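The 8 Hox genes of Drosophila melanogaster were followed as short RNA fragments in small RNA libraries from sorted embryo cells. They were labial (lab), proboscipedia (pb), Deformed (Dfd), Sex combs reduced (Scr), Antennapedia (Antp), Ultrabithorax (Ubx), abdominal-A (abd-A) and Abdominal-B (Abd-B). They were taken by symbol as the Hox gene family, with no threshold on their measured values, and make up 8 of the 17559 features in the count tables. All 8 were found, all had counts above 0 in each of the 20 libraries, and all 8 passed the filter on low counts that left 11726 genes for testing. For lab some of these values were below a whole count. They were 0.33 in each pros-positive library, 0.34 in elav-negative replicate 2 and 0.65 in repo-positive replicate 2, all at 6-8 h. The libraries hold short fragments of size-selected RNA from fixed cells, so the values are not mRNA levels.

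Hox genes code for homeodomain transcription factors that give segments their identity along the head to tail axis, and their order on the chromosome matches the order of the body regions they act in. In the fly they lie in 2 complexes. The Antennapedia complex holds lab, pb, Dfd, Scr and Antp, which act in the head and the anterior thorax, and the bithorax complex holds Ubx, abd-A and Abd-B, which act in the posterior thorax and the abdomen. In the embryonic nervous system Hox proteins set the identity, number and survival of neuroblasts and neurons in each segment, and in abdominal neuroblasts of the larva abd-A is known to trigger cell death. Their states are kept off by Polycomb group proteins and on by trithorax group proteins, and most Hox proteins bind DNA together with the cofactors extradenticle (exd) and homothorax (hth).

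The embryos were collected between 6-8 h and between 18-22 h after egg laying. Dissociated cells were fixed with formaldehyde, stained for a marker protein and separated by flow cytometry into a marker-positive and a marker-negative fraction. The markers were repo, a glial transcription factor, elav, a neuronal RNA-binding protein, and pros (prospero), a homeodomain protein of dividing neural precursors. The labels call the positive fractions enriched for glia, neurons and neuroblasts, and give no genotype, so no transgene or mutation is known to be shared by the groups. The 10 groups were repo-positive and repo-negative cells and elav-positive and elav-negative cells at each of the 2 stages, and pros-positive and pros-negative cells at 6-8 h, with 2 libraries each that the labels call biological duplicates. A negative fraction holds every cell without the marker, so repo-negative cells include neurons and elav-negative cells include glia.

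Total counts ran from 6863042 to 24501421 per library, of which miRNA hairpins took 1.01 to 41.4%. The 8 Hox genes together had 313 to 3219 counts per library, so the precision of a single value is limited by counting for the low members. Of the 160 Hox values 153 were not whole numbers, because the authors' counting shared reads with several mapping places among those places. Levels are given as CPM, counts scaled to the library total, over the features that are not miRNA hairpins and share no exon with a hairpin, with TMM scaling factors. The elav-positive and elav-negative libraries of replicate 2 at 6-8 h stood apart, with 1.01 and 2.09% of their counts on hairpins, and the calls that rest on them are also given without them, which leaves 1 library a group, taken to vary like the other groups. Fragments of the sort genes followed the labels: at 6-8 h repo was at 210 to 235 CPM in repo-positive and 4.79 to 5.21 CPM in repo-negative libraries, elav at 523 to 596 CPM in elav-positive and 48.4 to 49.9 CPM in elav-negative libraries, and pros at 195 to 227 CPM in pros-positive cells and at 12.8 CPM in both libraries of pros-negative cells.

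All 8 genes lie on chromosome arm 3R (coordinates of the annotation of the deposited tables, build BDGP6). In the Antennapedia complex lab (FBgn0002522) spans 6661427 to 6678590 on the minus strand, pb (FBgn0051481) 6707800 to 6742063 on the minus strand, Dfd (FBgn0000439) 6791836 to 6802428 on the plus strand, Scr (FBgn0003339) 6823120 to 6849981 on the minus strand and Antp (FBgn0260642) 6896253 to 6999228 on the minus strand. In the bithorax complex Ubx (FBgn0003944) spans 16656623 to 16734426, abd-A (FBgn0000014) 16807214 to 16830049 and Abd-B (FBgn0000015) 16927210 to 16972236, all on the minus strand. No exon of a member overlapped an exon of another feature on either strand, and all counts refer to exons.

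The members differed widely in level and in how much they varied across the sorts. Per exon length, abd-A, Antp and Ubx led in most groups and lab or pb stood last in all 10. In elav-positive cells at 18-22 h the levels per kb were 16.7 CPM for abd-A, 10.5 for Antp, 8.48 for Ubx, 4.14 for Scr, 3.62 for Abd-B, 1.55 for pb, 1.54 for Dfd and 0.169 for lab (means of 2 libraries). In this order the libraries of pb and Dfd overlapped, and those of all other neighbours did not. Summed over the 8 genes, elav-positive libraries held the most Hox fragments, with 263 and 264 CPM at 18-22 h and 288 and 274 CPM at 6-8 h. The other 16 libraries held between 34.3 and 143 CPM, with the elav-negative libraries at 18-22 h lowest at 34.3 and 51.8 CPM.

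**Figure D1:**
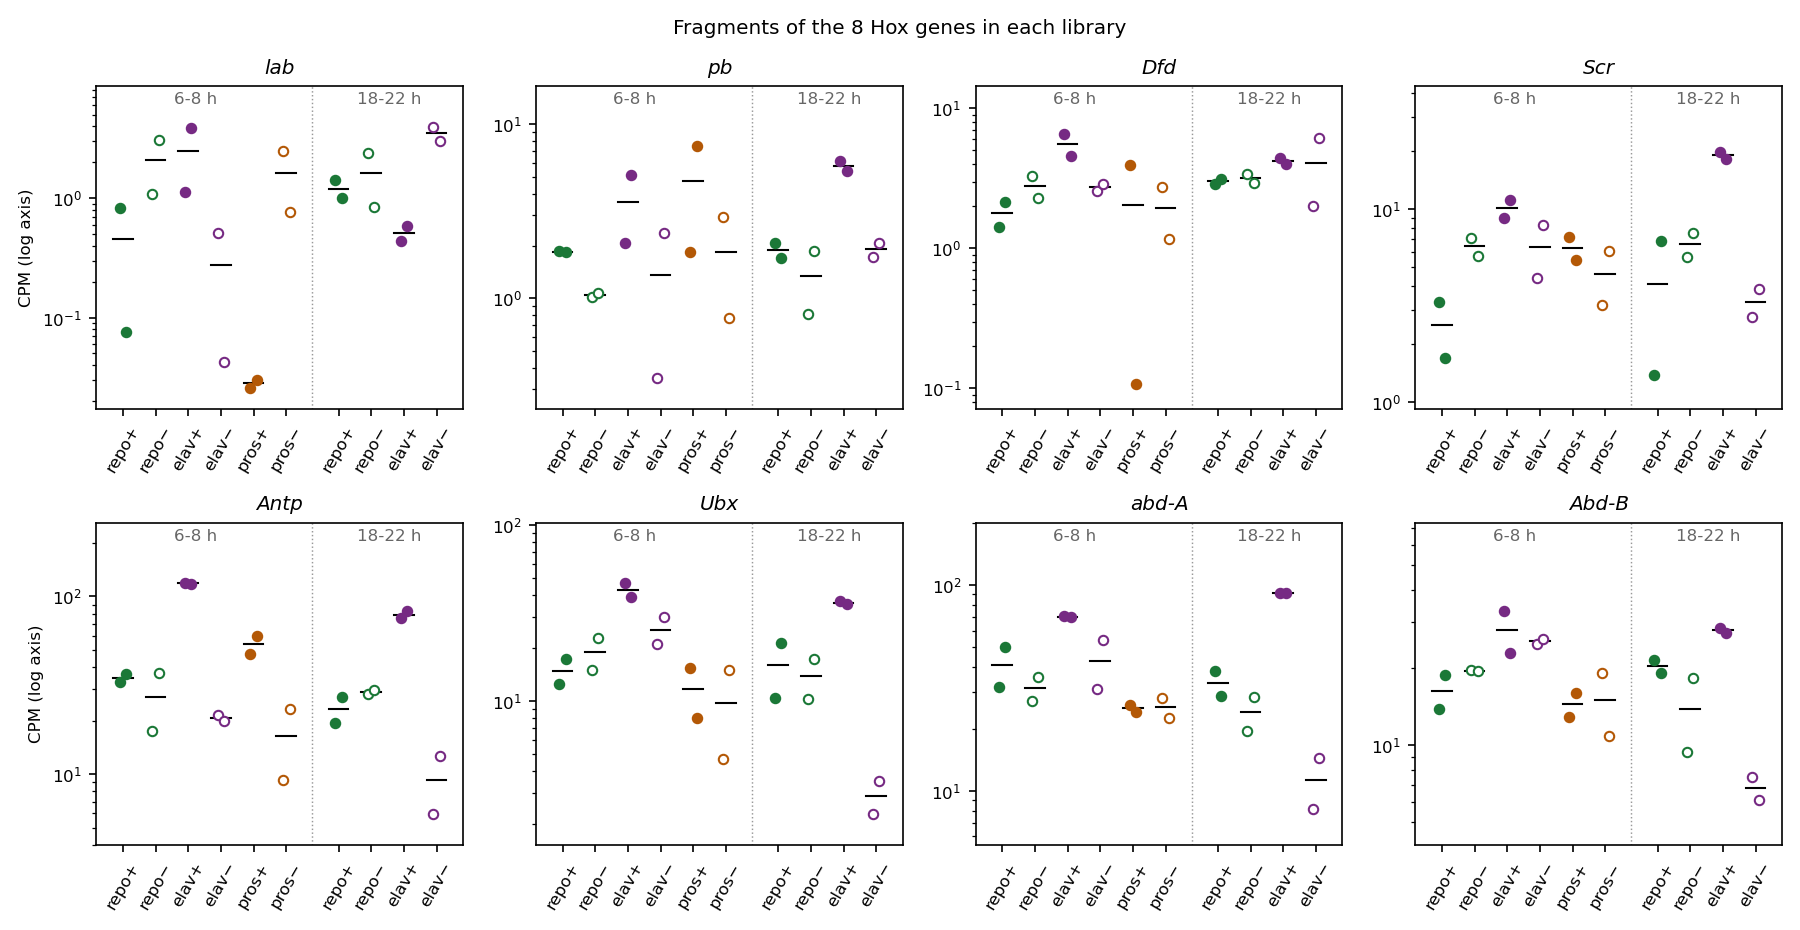
Fragment level of each Hox gene in every library, in CPM on a log axis, with filled points for marker-positive and open points for marker-negative libraries, black lines for the mean of 2 libraries and a dotted line between the stages. The elav-positive libraries are the highest for Scr, Antp, Ubx and abd-A at 18-22 h, and the elav-negative libraries at 18-22 h are the lowest of all for Ubx, abd-A and Abd-B.

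The elav sort at 18-22 h asks which genes differ between cells enriched for late neurons and the remaining cells of the embryo. Fragments of 5 of the 8 Hox genes rose in elav-positive cells: Scr and Antp, which act in the thorax and the most posterior head, and all 3 genes of the bithorax complex. The background was 8.83% of all tested genes called higher. The median log2 fold change was 2.27 over the 8 genes against -0.19 over all 11726.

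Fragments of Ubx, which sets the identity of the posterior thorax and first abdominal segment, were at 37.2 and 35.4 CPM in the elav-positive libraries, against 2.28 and 3.52 CPM in the elav-negative ones. This was the largest fold of the 8 genes in this sort (log2 fold change 3.65 ± 0.56, adjusted p = 0.000113, edgeR's quasi-likelihood test with Benjamini-Hochberg adjustment, which gives every adjusted p below; ± is the standard error). Antp, the identity gene of the second thoracic segment, was at 75.6 and 82.4 CPM in elav-positive cells, against 5.96 and 12.6 CPM in elav-negative cells (3.11 ± 0.45, adjusted p = 7.39e-05). The gene abd-A, which acts in most abdominal segments, was at 91.4 and 91.0 CPM in elav-positive cells, against 8.14 and 14.5 CPM in elav-negative cells (3.02 ± 0.39, adjusted p = 2.13e-05). For these 3 genes both elav-positive libraries lay above both elav-negative ones, as for 27.2% of all tested genes.

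Abd-B, the gene of the most posterior abdominal segments and the genital region, was at 28.5 and 27.3 CPM in elav-positive cells, against 7.47 and 6.11 CPM in elav-negative cells (2.04 ± 0.40, adjusted p = 0.00134). Scr, the identity gene of the labial and first thoracic segments, was at 19.7 and 18.2 CPM in elav-positive cells, against 2.76 and 3.86 CPM in elav-negative cells (2.51 ± 0.64, adjusted p = 0.0102). Both genes also lay above without overlap in elav-positive cells, as did 27.2% of all tested genes. The call of Scr ended when elav-positive replicate 1 or either elav-negative library was left out (adjusted p up to 0.118), while the calls of Antp, Ubx, abd-A and Abd-B passed in all 13 alternatives run.

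The 3 genes of the anterior head did not pass the test in this sort. Fragments of pb, which acts in the mouthparts, were at 6.18 and 5.41 CPM in elav-positive cells, against 1.72 and 2.09 CPM in elav-negative cells (1.60 ± 0.94, adjusted p = 0.287). Dfd, a gene of the mandibular and maxillary segments, was at 4.45 and 4.00 CPM in elav-positive cells, against 2.02 and 6.11 CPM in elav-negative cells, where the negative libraries lay on both sides of the positive ones (0.08 ± 0.93, 95% interval -1.85 to 2.01, adjusted p = 0.975). The most anterior gene, lab, which acts in the intercalary segment and the midgut, was at 0.442 and 0.587 CPM in elav-positive cells, against 3.97 and 3.05 CPM in elav-negative cells (-2.63 ± 1.25, adjusted p = 0.178). It was the only 1 of the 8 with a negative value in this sort. These genes had few fragments (median count per library 7.2 for lab, 15.5 for pb and 21.8 for Dfd), and their intervals are wide.

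Other cell types moved with these fractions. Of 11 neuronal markers 10 rose in elav-positive cells at 18-22 h, with a summed level of 1693 to 1953 CPM in elav-positive and 72.1 to 110 CPM in elav-negative cells. All 7 hemocyte markers and 6 of 8 muscle and mesoderm markers fell, the hemocyte sum being 184 to 217 CPM in elav-positive and 2530 to 4710 CPM in elav-negative cells and the muscle sum 395 to 403 CPM in elav-positive and 942 to 1080 CPM in elav-negative cells. No marker of these lists was at 0 in both libraries of a group. In such bulk samples fewer cells of a type and less RNA per cell cannot be told apart, and the part of the cell types in the Hox values was not tested.

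**Figure D2:**
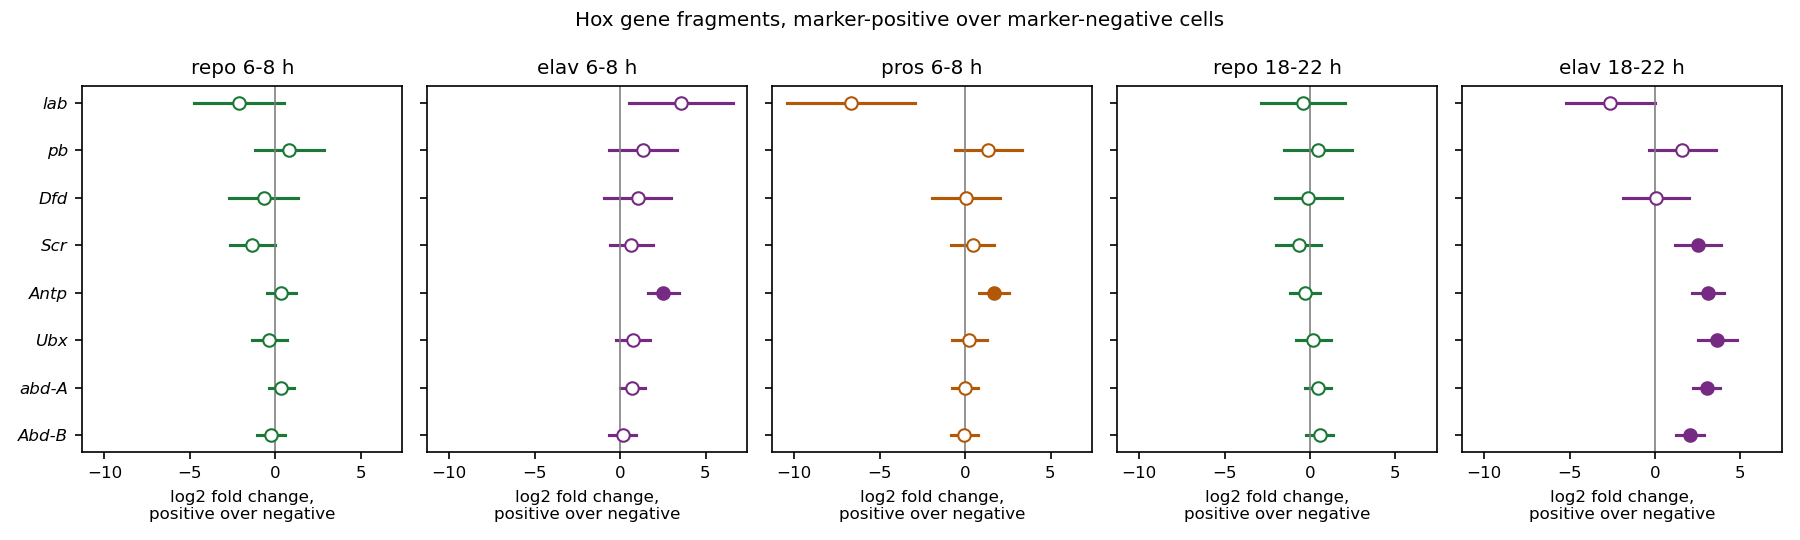
Log2 fold change of each Hox gene in marker-positive over marker-negative cells in the 5 sorts, genes in chromosomal order from the head (top) to the tail, with 95% intervals of the edgeR fit and filled points for adjusted p below 0.05. In the elav sort at 18-22 h the 5 genes from Scr to Abd-B are filled, between 2.04 and 3.65. Antp is the only filled point in the elav sort (2.52) and in the pros sort (1.70) at 6-8 h, and neither repo sort has a filled point.

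In the elav sort at 6-8 h, which compares early neurons with the remaining cells, 1 of the 8 Hox genes rose in elav-positive cells, Antp, against a background of 5.38% of all tested genes. Antp fragments were at 118.5 and 118.2 CPM in elav-positive cells, against 21.5 and 19.8 CPM in elav-negative cells (2.52 ± 0.44, adjusted p = 0.000744). The other 7 genes had positive values too, from 0.15 for Abd-B to 3.55 for lab, and the median over the 8 was 0.88 against 0.00 over all tested genes. Without both libraries of replicate 2, which stood apart, the adjusted p of Antp was 0.0524.

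The bithorax genes did not pass in this sort with TMM scaling. Fragments of abd-A were at 70.4 and 69.7 CPM in elav-positive cells, against 31.0 and 53.9 CPM in elav-negative cells (0.72 ± 0.36, adjusted p = 0.251). With total-count scaling its value was 1.39 (adjusted p = 0.0358). Ubx was at 47.0 and 38.9 CPM in elav-positive cells, against 21.0 and 29.9 CPM in elav-negative cells (0.75 ± 0.48, adjusted p = 0.398). Both genes had positive libraries above both negative ones, as did 26.5% of all tested genes. Abd-B was at 33.3 and 22.8 CPM in elav-positive cells, against 24.8 and 25.8 CPM in elav-negative cells, with overlap (0.15 ± 0.38, 95% interval -0.64 to 0.94). For lab the 2 elav-negative libraries held 2.34 counts together and the 2 elav-positive ones 52.9. With counts rounded to whole numbers the ratio of levels was 17.0, with a 95% counting interval of 4.47 to 144. But 45.1 of those 52.9 counts came from positive replicate 2, and lab did not pass (adjusted p = 0.145). Of the neuronal markers 10 of 11 rose in this sort as well, while 5 of 7 hemocyte and 5 of 8 muscle and mesoderm markers fell. The neuronal sums were 1129 to 1228 CPM in elav-positive and 66.9 to 70.8 CPM in elav-negative cells and the hemocyte sums 21.0 to 35.2 CPM in elav-positive and 104 to 238 CPM in elav-negative cells, and their part in the Hox values was not tested.

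The difference between the elav contrasts of the stages was tested directly. It passed for 1 Hox gene, abd-A, whose elav contrast was larger at 18-22 h by 2.30 ± 0.52 on the log2 scale (adjusted p = 0.0292), against 0.35% of all tested genes called in that direction. Ubx had a larger estimate, 2.90 ± 0.72, and missed the threshold (adjusted p = 0.0521), as did Abd-B (1.89 ± 0.55, adjusted p = 0.101). For Antp the difference was 0.59 ± 0.59 (95% interval -0.65 to 1.83, adjusted p = 0.762). The same test of the repo contrast called none of the 8 in edgeR, which called 0.0853% of all genes there. Of the 8 genes 0 had an unadjusted p under 0.05 and 0 were called in DESeq2, which called 23 of 11726 genes higher and 113 lower. The share of all genes at an unadjusted p under 0.05 was not counted, here or below. The call of abd-A ended in 9 of 17 alternatives, among them total-count scaling and leaving out either elav-positive library of either stage, elav-negative replicate 2 at 6-8 h or elav-negative replicate 1 at 18-22 h (adjusted p up to 0.199 without 1 library).

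The stage comparison within each fraction shows where these genes differed. In elav-negative cells 3 Hox genes fell at 18-22 h, all of the bithorax complex, against a background of 5.43% of all tested genes. Ubx was at 2.28 and 3.52 CPM at 18-22 h, against 21.0 and 29.9 CPM at 6-8 h (-3.15 ± 0.55, adjusted p = 0.000939). For abd-A the elav-negative values were 8.14 and 14.5 CPM at 18-22 h, against 31.0 and 53.9 CPM at 6-8 h (-1.92 ± 0.38, adjusted p = 0.00237). Abd-B was at 7.47 and 6.11 CPM at 18-22 h, against 24.8 and 25.8 CPM at 6-8 h (-1.90 ± 0.40, adjusted p = 0.0039). The stages did not overlap for any of the 3. The share of all genes that did the same was not counted in elav-negative cells. Between the stages of elav-positive cells 23.8% of all tested genes lay below without overlap. Only Ubx passed in all 13 alternatives: abd-A lost its call without elav-negative replicate 2 at 6-8 h, without replicate 1 at 18-22 h and without both replicate 2 libraries of the early elav sort, and Abd-B without elav-negative replicate 2 at 18-22 h (adjusted p = 0.0555).

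In the same elav-negative comparison Antp was at 5.96 and 12.6 CPM at 18-22 h, against 21.5 and 19.8 CPM at 6-8 h (-1.17 ± 0.44, adjusted p = 0.084, and 0.0406 with the replicate number as a block). The lab gene had 57.1 counts in the 2 libraries at 18-22 h and 2.34 in the 2 at 6-8 h (adjusted p = 0.078). With counts rounded to whole numbers the ratio of levels was 21.2, with a counting interval of 5.60 to 179. Of the marker lists 4 of 7 hemocyte, 5 of 8 muscle and mesoderm, 5 of 11 neuronal, 2 of 3 endoderm, 2 of 4 salivary gland and 2 of 7 epidermis markers rose at 18-22 h in elav-negative cells. A single muscle and mesoderm marker and 3 of 9 neuroblast markers fell. The hemocyte sum was 2530 to 4710 CPM at 18-22 h and 104 to 238 CPM at 6-8 h, and the endoderm sum 85.2 to 91.6 CPM at 18-22 h and 6.69 to 6.90 CPM at 6-8 h. What these cells contribute to the Hox values was not tested.

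In elav-positive cells none of the 8 passed between the stages in edgeR, which called 3.03% of all tested genes there. None of the 8 had an unadjusted p under 0.05 and DESeq2 called 0 of them, against 486 of all 11726 genes higher and 268 lower. The estimates ran from -2.16 ± 1.23 for lab to 0.91 ± 0.60 for Scr, and Abd-B was at 28.5 and 27.3 CPM at 18-22 h, against 33.3 and 22.8 CPM at 6-8 h (-0.01 ± 0.38, 95% interval -0.79 to 0.78). Antp was at 75.6 and 82.4 CPM at 18-22 h, against 118.5 and 118.2 CPM at 6-8 h (-0.58 ± 0.41, 95% interval -1.44 to 0.27). The same count of 0, with 0 at an unadjusted p under 0.05 and 0 in DESeq2, was found in repo-positive and in repo-negative cells. There edgeR called 3.70% of all genes in repo-positive and 11.4% in repo-negative cells. DESeq2 called 498 genes higher and 367 lower in repo-positive cells, and 1200 higher and 626 lower in repo-negative cells. In repo-negative cells Ubx was at 10.3 and 17.4 CPM at 18-22 h, against 15.0 and 22.8 CPM at 6-8 h (-0.44 ± 0.49).

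The pros sort at 6-8 h compares cells enriched for neuroblasts with the remaining cells. Antp was the only Hox gene that rose in pros-positive cells, against a background of 1.2% of all tested genes. It was at 47.37 and 59.99 CPM in pros-positive cells, against 9.29 and 23.4 CPM in pros-negative cells (1.70 ± 0.43, adjusted p = 0.0378). Both pros-positive libraries lay above both pros-negative ones, as for 19.2% of all tested genes. The call of Antp ended with total-count scaling and in a fit of only the pros groups. It also ended without pros-positive replicate 2 and without pros-negative replicate 1. Over the 12 alternatives the value ran from 1.20 to 2.53. The median over the 8 genes was 0.15 against -0.06 over all tested genes.

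The lab gene was nearly absent from pros-positive cells, with 0.66 counts in the 2 libraries together and 0.33 in each, against 21.4 counts in the pros-negative libraries (14.4 and 7). With counts rounded to whole numbers, the ratio of pros-positive to pros-negative levels was 0.0299, with a 95% counting interval of 0.000724 to 0.186. Its adjusted p was 0.0525 in edgeR, just above the threshold, and 0.0109 in DESeq2, where 414 of 11726 genes were called lower. Both fits rounded each library, which left no lab counts in pros-positive cells. The bithorax genes had estimates near 0 in the pros sort. Ubx was at 15.4 and 8.01 CPM in pros-positive cells, against 4.68 and 14.9 CPM in pros-negative cells, abd-A was at 26.2 and 24.0 CPM in pros-positive cells, against 28.2 and 22.7 CPM in pros-negative cells, and Abd-B was at 12.8 and 16.0 CPM in pros-positive cells, against 19.1 and 10.8 CPM in pros-negative cells. All 3 overlapped between the fractions, with 95% intervals of -0.80 to 1.26 for Ubx, -0.77 to 0.74 for abd-A and -0.85 to 0.75 for Abd-B. Dfd was uneven between the pros-positive libraries, at 3.96 and 0.107 CPM. Of the neuroblast markers 7 of 9 rose in pros-positive cells (sum 540 to 624 CPM in pros-positive and 63.7 to 94.2 CPM in pros-negative cells), and so did 6 of 11 neuronal markers (363 to 396 CPM in pros-positive and 58.1 to 63.7 CPM in pros-negative cells). In pros-positive cells 3 of 7 hemocyte, 2 of 4 salivary gland, 1 of 3 endoderm and 1 of 3 germline markers fell. The endoderm sum was 5.70 to 7.27 CPM in pros-positive and 24.3 to 44.5 CPM in pros-negative cells, and the part of these cell types in the Antp and lab values was not tested.

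Neither repo sort, which compares cells enriched for glia with the remaining cells, gave a call among the 8 Hox genes in edgeR. At 6-8 h the count was 0 where 3.36% of all genes were called, with 1 gene, Scr, at an unadjusted p under 0.05 and 0 calls in DESeq2. At 18-22 h it was 0 where 2.31% of all genes were called, with 0 genes at an unadjusted p under 0.05 and 0 in DESeq2. Of all 11726 genes DESeq2 called 503 higher and 314 lower at 6-8 h, and 277 higher and 167 lower at 18-22 h. Scr was at 3.30 and 1.68 CPM in repo-positive cells, against 7.10 and 5.69 CPM in early repo-negative cells (-1.34 ± 0.64, adjusted p = 0.301). At 18-22 h Scr was at 1.38 and 6.81 CPM in repo-positive cells, against 5.62 and 7.46 CPM in repo-negative cells, with overlap.

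The more posterior genes did not pass between the repo fractions either. At 18-22 h Abd-B was at 21.4 and 19.1 CPM in repo-positive cells, against 9.38 and 18.1 CPM in repo-negative cells (0.56 ± 0.38, 95% interval -0.24 to 1.35, adjusted p = 0.678). At the same stage abd-A was at 38.1 and 28.8 CPM in repo-positive cells, against 19.6 and 28.6 CPM in repo-negative cells (0.47 ± 0.36, 95% interval -0.28 to 1.22). For these 2 genes both repo-positive libraries lay above both repo-negative ones, as for 20.5% of all tested genes. Ubx was at 10.4 and 21.5 CPM in repo-positive cells, against 10.3 and 17.4 CPM in repo-negative cells there (0.19 ± 0.49, 95% interval -0.83 to 1.21). Antp was at 19.4 and 27.1 CPM in repo-positive cells, against 28.1 and 29.7 CPM in repo-negative cells (-0.32 ± 0.42, 95% interval -1.18 to 0.55). The repo-negative fraction at this stage had a higher sum of neuronal marker fragments than the positive one. The sums were 341 to 387 CPM in repo-positive and 433 to 472 CPM in repo-negative cells, with 0 of 11 neuronal markers called. Of the glial markers 8 of 10 rose in repo-positive cells (990 to 1467 CPM in repo-positive and 92.6 to 104 CPM in repo-negative cells).

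Tested as differences between contrasts, the repo sort and the elav sort differed at 18-22 h for 4 Hox genes, where 4.6% of all tested genes had a lower repo contrast. The repo contrast was lower than the elav contrast by 3.46 ± 0.73 for Ubx (log2 difference -3.46, adjusted p = 0.00465), by 3.42 ± 0.61 for Antp (-3.42, adjusted p = 0.00125), by 2.54 ± 0.52 for abd-A (-2.54, adjusted p = 0.00381) and by 3.19 ± 0.89 for Scr (-3.19, adjusted p = 0.0349). Those of Antp, Ubx and abd-A passed in all 17 alternatives, and that of Scr ended in 8 of 17, namely with TMM factors from protein-coding features and without any of 7 of the 8 libraries (all but repo-positive replicate 2). Abd-B had -1.48 ± 0.55 (adjusted p = 0.131). At 6-8 h none of the 8 differed between the repo and the elav contrast in edgeR, where 1.45% of all genes did, with 3 genes at an unadjusted p under 0.05 and 1 call, Antp, in DESeq2. Of all 11726 genes DESeq2 called 198 higher and 190 lower in that difference. The pros and the elav contrast at 6-8 h differed for lab alone (-10.25 ± 2.31, adjusted p = 0.0174), where 2.35% of all genes were called lower. That estimate rests on 0.66 counts in pros-positive and 2.34 counts in elav-negative cells before rounding. The fit rounded each library, which left no counts in pros-positive cells and 2 in elav-negative cells. The size of the estimate is not to be read as a fold.

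Set directly against each other at 18-22 h, 3 Hox genes fell in repo-positive cells relative to elav-positive cells, where 3.68% of all tested genes did. Antp was at 19.4 and 27.1 CPM in repo-positive cells, against 75.6 and 82.4 CPM in elav-positive cells (-1.76 ± 0.43, adjusted p = 0.0152). For abd-A the values were 38.1 and 28.8 CPM in repo-positive cells, against 91.4 and 91.0 CPM in elav-positive cells (-1.45 ± 0.36, adjusted p = 0.02). Scr was at 1.38 and 6.81 CPM in repo-positive cells, against 19.7 and 18.2 CPM in elav-positive cells (-2.21 ± 0.63, adjusted p = 0.039). All 3 lay below without overlap in repo-positive cells, as did 28.3% of all tested genes. The calls of Antp and abd-A ended when any of the 4 libraries was left out. That of Scr ended when any but repo-positive replicate 2 was left out, or with TMM factors from protein-coding features. Leaving out a library leaves 1 in its group, taken to vary like the other groups, and over the 13 alternatives the value ran from -2.03 to -1.54 for Antp, from -1.66 to -1.26 for abd-A and from -3.78 to -1.47 for Scr.

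At 6-8 h the only Hox gene that fell in repo-positive relative to elav-positive cells was Antp, at 33.2 and 36.5 CPM in repo-positive cells, against 118.5 and 118.2 CPM in elav-positive cells (-1.76 ± 0.42, adjusted p = 0.0197), where 2.08% of all tested genes fell. All 8 genes had negative values and libraries that did not overlap, where 22.3% of all tested genes lay below without overlap. Scr (-2.01 ± 0.64, adjusted p = 0.0877) and Ubx (-1.52 ± 0.49, adjusted p = 0.0948) missed the threshold and were called by DESeq2, which called 449 of 11726 genes lower. The call of Antp ended without both early elav libraries of replicate 2, without elav-positive replicate 2 and without either repo-positive library (adjusted p up to 0.144). Of the neuronal markers 9 of 11 at 18-22 h and 7 of 11 at 6-8 h fell in repo-positive relative to elav-positive cells, and their part in the Hox values was not tested.

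In elav-positive relative to pros-positive cells at 6-8 h, 3 Hox genes rose, where 6.63% of all tested genes did. Ubx was at 47.0 and 38.9 CPM in elav-positive cells, against 15.4 and 8.01 CPM in pros-positive cells (1.88 ± 0.50, adjusted p = 0.0187). For abd-A the values were 70.4 and 69.7 CPM in elav-positive cells, against 26.2 and 24.0 CPM in pros-positive cells (1.48 ± 0.36, adjusted p = 0.0125). Both genes lay above without overlap in elav-positive cells, as did 28.4% of all tested genes. The third was lab, with 52.9 counts in elav-positive and 0.66 in pros-positive cells (log2 fold change 7.38, adjusted p = 0.012). With counts rounded to whole numbers the ratio of levels was 67.7, with a 95% counting interval of 11.6 to 2724. That ratio rounds the summed counts of a group. Its size depends on the rounding, because the pros-positive libraries hold less than a whole count together. The edgeR fit rounded each library, which left no counts in pros-positive cells, so the 7.38 is not to be read as a fold. Of the 52.9 counts 45.1 came from elav-positive replicate 2. The lab gene did not pass without that library (6.26, adjusted p = 0.0726) or without both early elav libraries of replicate 2 (6.26, adjusted p = 0.0575). Antp, the gene called in both sorts, was at 118.5 and 118.2 CPM in elav-positive cells, against 47.37 and 59.99 CPM in pros-positive cells (1.14 ± 0.41, adjusted p = 0.0806). The 3 calls ended in a fit of only these groups and without pros-positive replicate 2, and that of Ubx also without elav-positive replicate 1 (adjusted p up to 0.154). Processing cannot be told apart from the sort here, since the file headers give the pros libraries another mapping directory. Of the neuronal markers 9 of 11 rose in elav-positive cells and 4 of 9 neuroblast markers fell.

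Repo-positive against pros-positive cells at 6-8 h gave 0 calls among the 8 genes in edgeR, where 11.5% of all genes were called, with 2 genes at an unadjusted p under 0.05 and 0 calls in DESeq2. Of all 11726 genes DESeq2 called 1157 higher and 740 lower. Antp was at 33.2 and 36.5 CPM in repo-positive cells, against 47.37 and 59.99 CPM in pros-positive cells (-0.62 ± 0.41, 95% interval -1.48 to 0.24). Scr was at 3.30 and 1.68 CPM in repo-positive cells, against 7.13 and 5.41 CPM in pros-positive cells (-1.32 ± 0.63, adjusted p = 0.183).

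Across the 10 groups each member had its own order of levels, given here as means ± SD of 2 libraries. Among the genes of the head, lab was highest in elav-negative cells at 18-22 h (3.51 ± 0.65 CPM), followed by elav-positive (2.49 ± 1.91) and repo-negative (2.09 ± 1.41) cells at 6-8 h, and the libraries of the 6 highest groups overlapped from neighbour to neighbour. It was lowest in elav-negative (0.277 ± 0.331) and pros-positive (0.0280 ± 0.0031) cells at 6-8 h. The pb gene ran from 5.79 ± 0.55 CPM in elav-positive cells at 18-22 h to 1.04 ± 0.04 CPM in early repo-negative cells, and every pair of neighbours in its order overlapped. Dfd ran from 5.55 ± 1.43 CPM in elav-positive cells at 6-8 h to 1.78 ± 0.50 CPM in repo-positive cells at 6-8 h, and only its highest group lay clear of the next, elav-positive cells at 18-22 h (4.22 ± 0.32). Scr was highest in elav-positive cells at 18-22 h (18.9 ± 1.07 CPM) and next at 6-8 h (10.1 ± 1.51), both clear of the group below, and ran on with overlap through 6.54 ± 1.30 CPM in late repo-negative cells to 2.49 ± 1.15 CPM in early repo-positive cells.

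The 5 highest groups of Antp were elav-positive cells at 18-22 h (79.0 ± 4.76 CPM, the second of the order) and at 6-8 h (118 ± 0.22, the first), pros-positive cells (53.7 ± 8.92), repo-positive cells at 6-8 h (34.8 ± 2.35) and repo-negative cells at 18-22 h (28.9 ± 1.14), each clear of the next down to the fifth, and the lower 5 ended with pros-negative (16.3 ± 9.96) and late elav-negative cells (9.26 ± 4.67). The bithorax genes shared their top 3 and their lowest group, elav-negative cells at 18-22 h. Ubx was at 36.3 ± 1.24 CPM in late and 42.9 ± 5.74 CPM in early elav-positive cells and at 25.5 ± 6.28 CPM in early elav-negative cells, and overlapped from there down to pros-negative cells (9.81 ± 7.25). The elav-positive levels of abd-A were 91.2 ± 0.23 CPM at 18-22 h and 70.0 ± 0.51 CPM at 6-8 h, clear of each other and of early elav-negative cells (42.5 ± 16.2), and its next 6 groups, from 40.9 ± 12.7 to 24.1 ± 6.41 CPM, overlapped in turn. Abd-B had the narrowest range of the 3, from 28.1 ± 7.43 CPM in early elav-positive cells to 6.79 ± 0.97 CPM in late elav-negative cells, and its elav-positive groups overlapped.

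The make-up of the Hox fragments per exon length also differed between groups. The genes of the anterior head (lab, pb and Dfd) held 36.3 and 35.9% of the summed CPM per kb in elav-negative cells at 18-22 h, and 5.9 to 19.7% in the other 18 libraries. The bithorax genes held 43.4 and 40.3% in those late elav-negative libraries, against 62.0 and 61.2% in late elav-positive libraries. Antp was the highest Hox gene per kb in both elav-positive libraries at 6-8 h (32.1 and 33.3%), in both pros-positive libraries (31.8 and 40.8%) and in late repo-negative replicate 1, and abd-A was the highest in the other 15 libraries. In early elav-negative libraries Antp held 15.3 and 10%.

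**Figure D3:**
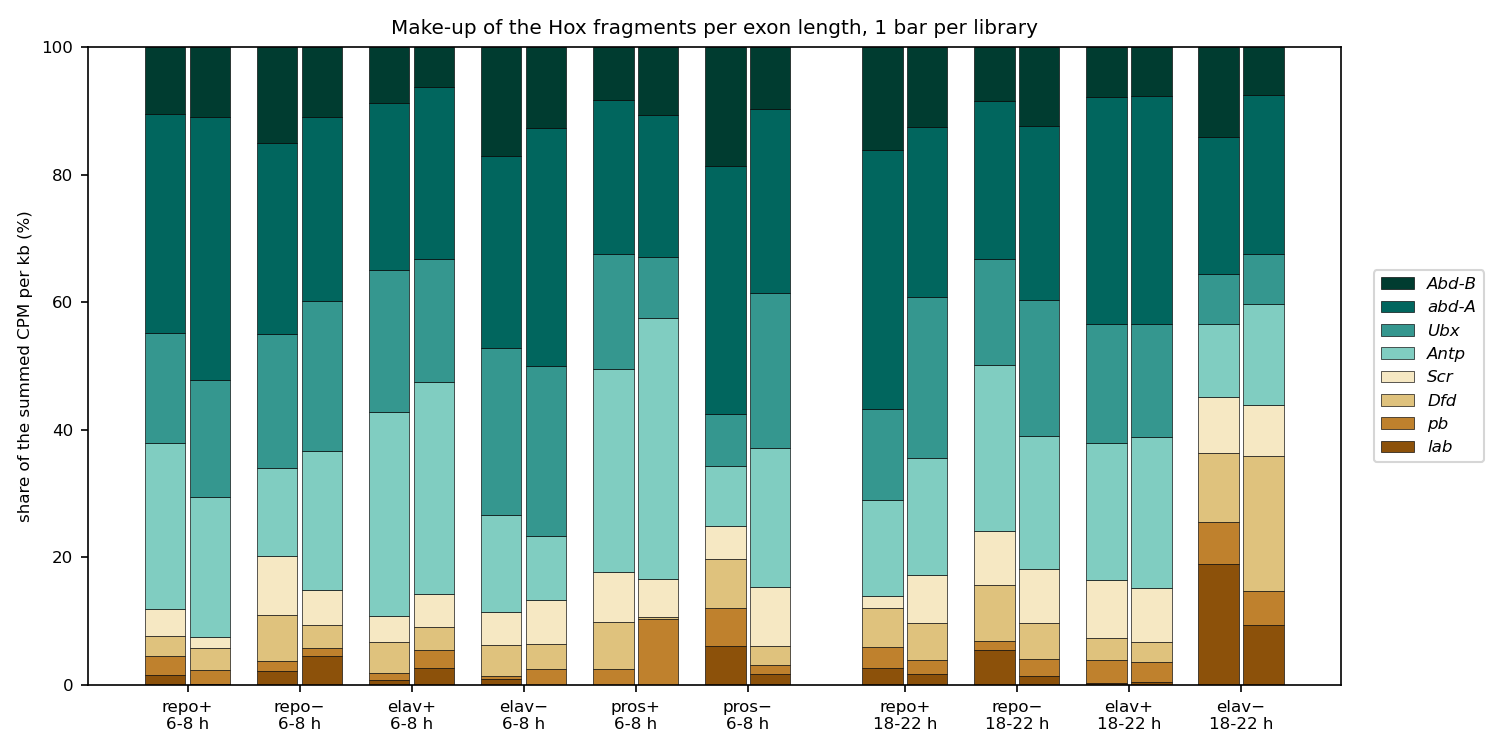
Share of each Hox gene in the summed CPM per kb of exon, in percent, with 1 bar per library and 2 bars per group, marker-positive left of marker-negative. In elav-negative cells at 18-22 h lab, pb and Dfd together reach 36.3 and 35.9%, and the Antp part is largest in early elav-positive and pros-positive libraries.

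Over the 10 group means of log2(CPM + 1) the bithorax genes had Pearson correlations of 0.95 (Ubx and abd-A), 0.96 (Ubx and Abd-B) and 0.93 (abd-A and Abd-B), and Antp and abd-A had 0.81. These are descriptions over 10 points that share scaling and the fractions of common sorts. Among 4900 tested genes with a mean of at least 5 CPM, the pattern most like that of Antp was that of elav itself (0.98), followed by trio, a guanine nucleotide exchange factor of growing axons (0.97). For Ubx and for abd-A it was PlexA, a semaphorin receptor (0.97 for both), for Scr vvl, a POU domain transcription factor, and FoxK (0.94 for both), for Abd-B Slip1 and gish (0.96 for both), for pb Ptpmeg2 (0.94), for Dfd RhoGAP19D (0.92) and for lab CG5966 (0.83).

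Between the outer Hox genes the Antennapedia complex also holds homeobox genes with other roles, and of 4 listed (bcd, zen, zen2 and ftz) 3 were tested. The pair-rule gene fushi tarazu (ftz), which in the nervous system acts in neural precursors and their progeny, rose in pros-positive cells, with a mean of 24.7 CPM against 0.722 CPM in pros-negative cells (4.99 ± 0.95, adjusted p = 0.00707). It fell in elav-positive cells at 18-22 h relative to 6-8 h, to 0.0531 CPM, against 12.7 CPM (adjusted p = 0.00242), and in elav-negative cells to 0.425 CPM, against 4.21 CPM (adjusted p = 0.0326). The level of 0.0531 CPM is on average less than a whole count per library, so the size of that fall is not to be read as a fold. Of this list no other gene passed in a positive against negative comparison. The long noncoding RNAs of the bithorax complex, bxd and iab8, gave no call in those 5 comparisons. The iab8 fragments averaged 5.45 CPM in late elav-positive cells, against 2.38 CPM in late elav-negative cells (adjusted p = 0.383).

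Both complexes hold miRNA hairpins, which are counted here relative to all hairpin counts of a library. Those of the Antennapedia complex are mir-993 (3R, 6776333 to 6776451, plus strand) and mir-10 (6809506 to 6809582, minus strand), and mir-iab-4 and mir-iab-8 lie on opposite strands of the same bithorax site (16856275 to 16856342) and are known to repress Ubx and abd-A, among others. In the 11 comparisons between fractions, positive cell types and stages of positive cells, 7 of 44 hairpin tests were called, 5 of them of mir-993. In the same comparisons the share of all 148 tested hairpins called ran from 2.03% in the late repo sort to 39.2% in the late elav sort. Its level was 324 and 308 CPM in repo-positive cells, against 38.5 and 50.3 CPM in early repo-negative cells (2.84 ± 0.65, adjusted p = 0.00377), in a comparison that called 23.6% of the 148 tested hairpins in either direction.

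In the elav sort mir-993 was at 898 and 586 CPM in elav-positive cells, against 20.4 and 168 CPM in elav-negative cells at 6-8 h (3.14 ± 0.69, adjusted p = 0.00167), where 33.1% of the tested hairpins were called. Without both libraries of replicate 2 the value was 4.71 ± 0.53 (adjusted p = 2.53e-06), an alternative chosen after seeing the data. At 18-22 h it was at 2443 and 1571 CPM in elav-positive cells, against 102 and 165 CPM in elav-negative cells (3.90 ± 0.68, adjusted p = 0.000238), where 39.2% were called. Its libraries did not overlap in any of these 3 sorts. The share of all hairpins that did the same was not counted, so with 2 libraries a group this is not read as particular to mir-993. In the late repo sort the mir-993 libraries overlapped, at 369 and 559 CPM in repo-positive cells, against 521 and 413 CPM in repo-negative cells (-0.01 ± 0.60, 95% interval -1.27 to 1.25). Within repo-negative cells mir-993 rose at 18-22 h, at 521 and 413 CPM, against 38.5 and 50.3 CPM at 6-8 h (3.41 ± 0.67, adjusted p = 0.000417, 37.2% called). At 18-22 h the difference between the late repo and elav contrasts passed (-3.91 ± 0.88, adjusted p = 0.0058, 18.9% called). It also fell in late repo-positive relative to late elav-positive cells (-2.11 ± 0.63, adjusted p = 0.0382, 8.78% called) and rose in early elav-positive relative to pros-positive cells (2.46 ± 0.64, adjusted p = 0.0073, 28.4% called; 2.93 ± 0.36 and adjusted p = 1.23e-05 without both early elav replicate 2 libraries).

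The other hairpin calls were in the late elav sort. The abundant mir-10 was at 93900 and 79960 CPM in elav-positive cells, against 27340 and 39140 CPM in elav-negative cells (1.39 ± 0.49, adjusted p = 0.0296). Likewise mir-iab-4 was at 170.6 and 103.0 CPM in elav-positive cells, against 45.9 and 44.3 CPM in elav-negative cells (1.59 ± 0.59, adjusted p = 0.0378), in the same sort in which Ubx and abd-A fragments rose. For mir-iab-8 none of the 11 tests passed in edgeR, and in the late elav sort its value was 1.18 ± 0.85 (adjusted p = 0.316). The 7 hairpin calls depend on the scaling: with factors taken from all features, in place of hairpins alone, 1 was called, and with total hairpin counts 15 were.

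**Figure D4:**
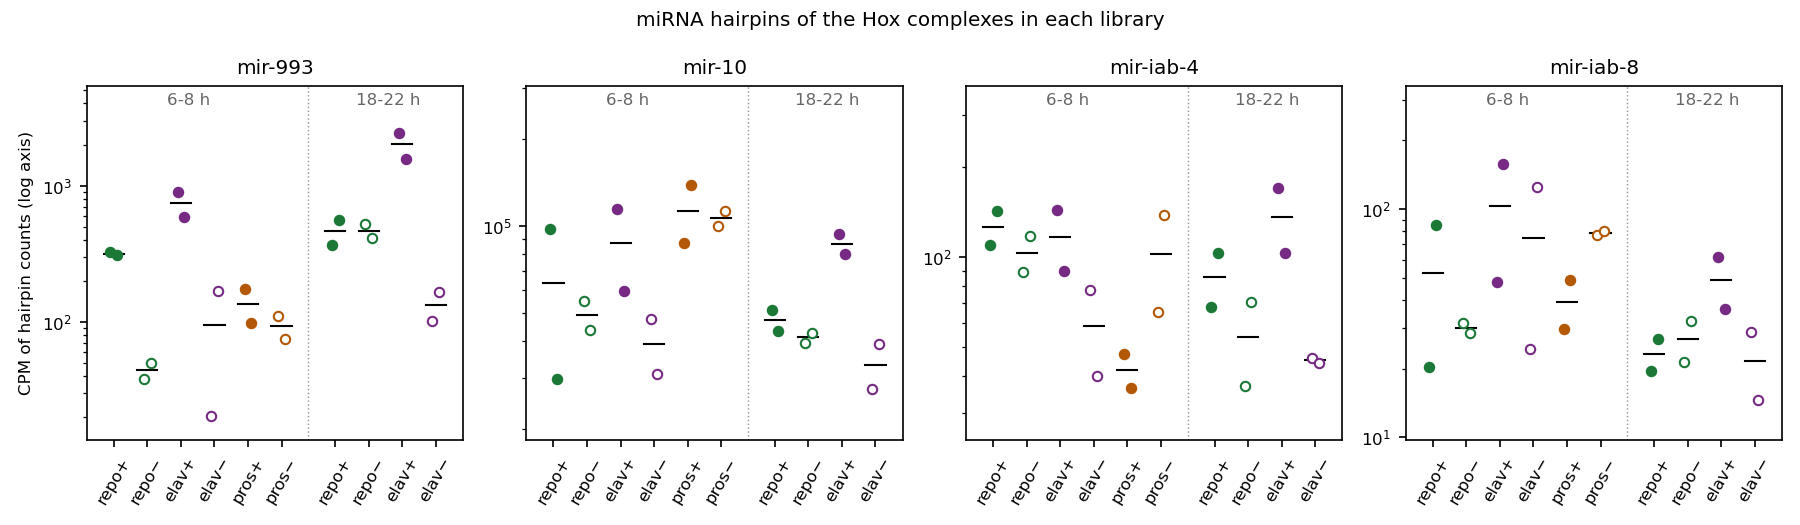
Level of the 4 miRNA hairpins of the Hox complexes in every library, in CPM of hairpin counts on a log axis, filled for marker-positive and open for marker-negative libraries, with black lines for the mean of 2 libraries. The highest mir-993 levels, 2443 and 1571 CPM, are those of elav-positive cells at 18-22 h.

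Among genes whose products work with or maintain Hox genes, fragments of 2 of 2 cofactors, 7 of 14 trithorax group genes and 4 of 19 Polycomb group genes rose in late elav-positive cells. Of the cofactors, exd averaged 40.5 CPM in elav-positive and 9.52 CPM in elav-negative cells (2.10 ± 0.37, adjusted p = 0.000503) and hth 140.2 CPM in elav-positive and 41.8 CPM in elav-negative cells (1.75 ± 0.30, adjusted p = 0.000348). Of 14 trithorax group genes 7 rose and 0 fell there (list median 1.11), among them the histone methyltransferase trx (1.73 ± 0.29, adjusted p = 0.000348), the chromatin remodeller kis (1.60 ± 0.30, adjusted p = 0.000762), the Brahma complex subunit mor (1.11 ± 0.33, adjusted p = 0.0263), tna (1.85 ± 0.40, adjusted p = 0.00304) and the bromodomain protein fs(1)h (1.38 ± 0.29, adjusted p = 0.00233). Of 19 tested Polycomb group genes 4 rose and 0 fell (list median 1.01): jing (1.85 ± 0.36, adjusted p = 0.00109), Psc (1.07 ± 0.33, adjusted p = 0.0326) and the neighbouring near-copies ph-p (1.57 ± 0.35, adjusted p = 0.00395) and ph-d (1.46 ± 0.34, adjusted p = 0.00559), which may share fragments. The background there is the 8.83% of all tested genes called higher, with a median of -0.19 over all of them.

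In the other sorts few of these regulators passed, where 2.38% of all tested genes were called higher in the early repo sort, 5.38% in the early elav sort and 1.2% in the pros sort. Su(z)2 rose in repo-positive cells (2.27 ± 0.50, adjusted p = 0.0115) and in elav-positive cells (3.03 ± 0.52, adjusted p = 0.000694) at 6-8 h, and ph-p, ph-d and trx rose in pros-positive cells (1.78, 1.34 and 1.55 on the log2 scale, adjusted p = 0.00852, 0.0371 and 0.00653 in edgeR). In the repo sort at 18-22 h the list medians were 0.07 for the cofactors, -0.35 for the Polycomb group and -0.21 for the trithorax group. In elav-negative cells at 18-22 h relative to 6-8 h, where the bithorax genes fell, 5 of 14 trithorax group genes (kis, mor, brm, fs(1)h and osa), 5 of 19 Polycomb group genes (jing, ph-d, ph-p, pho and Psc) and hth fell too, where 5.43% of all tested genes did, and Su(z)2 rose (2.33 ± 0.52, adjusted p = 0.00541), where 6.77% did.

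Of 13 tested genes known as Hox targets, 4 rose and 2 fell in late elav-positive cells, where 8.83% of all tested genes rose and 5.24% fell. Con, a cell adhesion molecule of motor neurons and muscles, rose most (3.23 ± 0.51, adjusted p = 0.000178), with a mean of 68.3 CPM in elav-positive and 7.35 CPM in elav-negative cells. The other risers were tsh, a trunk identity gene (2.66 ± 0.47, adjusted p = 0.000503), ct, a homeobox gene of sensory organs (1.95 ± 0.36, adjusted p = 0.00075), and salm (1.82 ± 0.46, adjusted p = 0.0103). The fallers were CrebA, a secretory gene regulator of the salivary gland that Scr is known to act on (-3.73 ± 0.56, adjusted p = 9.69e-05), and hid, a cell death gene (-2.34 ± 0.46, adjusted p = 0.00123). In the early repo sort, where 2.38% of all tested genes rose and 0.981% fell, Con (2.56 ± 0.50, adjusted p = 0.0053) and ct (1.99 ± 0.36, adjusted p = 0.00362) rose and hid fell (-1.89 ± 0.44, adjusted p = 0.0173) in repo-positive cells. In the early elav sort, where 5.38% rose and 3.6% fell, the cell death gene grim (4.37 ± 1.28, adjusted p = 0.0345) and Con (2.16 ± 0.49, adjusted p = 0.00719) rose and hid (-2.55 ± 0.45, adjusted p = 0.000858) and the signalling gene dpp (-1.84 ± 0.54, adjusted p = 0.0345) fell in elav-positive cells. In pros-positive cells grim rose (4.34 ± 1.12, adjusted p = 0.0449) and CrebA fell (-2.14 ± 0.51, adjusted p = 0.03), where 1.2% of all tested genes rose and 1.26% fell. In the late repo sort 1.44% of all tested genes rose and 0.87% fell. Dll, the limb gene that the bithorax genes are known to repress, was the only target that passed there in repo-positive cells (2.73 ± 0.57, adjusted p = 0.00989). Its mean was 22.7 CPM against 3.45 CPM in repo-negative cells.

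The authors' deposited tables of gene and miRNA pairs list a Hox gene in 8 of 11 comparisons, with 26 gene values in all. They hold only pairs with opposite signs (all 40999), and the headers do not state the direction, so the second group named was taken over the first, under which all 392 miRNA values have the sign of the fits here. In the authors' deposited tables the elav-positive over elav-negative log2 fold changes at 18-22 h were 3.12 for Antp, 3.15 for Ubx, 2.73 for abd-A, 2.82 for Scr, 2.21 for Abd-B and 1.11 for Dfd. At 6-8 h the authors' deposited table gives 2.70 for Antp, 1.22 for abd-A, 1.02 for Scr and 1.01 for Dfd in the elav sort, and 2.36 for Antp in the pros sort. The only Hox gene in the authors' deposited table for the early repo sort is Scr (-1.09), and neither the table for late repo-positive over repo-negative cells nor those between stages list any. The RNA libraries those gene values come from were not analysed here. Of the 132 pairs with a Hox gene in the authors' deposited tables, 2 name a hairpin of the complexes: mir-iab-4, higher in repo-positive than in pros-positive cells at 2.08, is paired there with Antp (-1.12) and with Scr (-1.196).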

How the data were processed

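Strand-specific small RNA libraries were made from RNA of sorted, formaldehyde-fixed embryo cells, after cross-link reversal and Proteinase K treatment. Per the file headers, the deposited estimated counts were made by the authors with featureCounts 1.5.1 over exons of Ensembl BDGP6 genes. Reads with several mapping places were counted in fractions, and reads over several features were counted in each. The submitters' processing notes name Bowtie 1.1.2, SAMtools 1.8 and DESeq2. The authors' deposited tables of gene and miRNA pairs give log2 fold changes and adjusted p-values, which were used as deposited.

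Integer counts had been planned for; the fractional counts were rounded. Of 17559 features, 237 miRNA hairpins and 59 features sharing an exon with a hairpin were left out of the gene fit, leaving 17263. Symbols from an annotation table matched 17253 features and 306 had none. Genes were tested with edgeR 4.0.16 in R 4.3.3 (quasi-likelihood test, TMM scaling, filterByExpr, Benjamini-Hochberg threshold 0.05) over all 20 libraries in 10 groups, with 10 residual degrees of freedom, and 148 hairpins likewise in a fit of their own. The standard error is the log2 fold change divided by the root of F. The fit was tested on simulated data. Counting intervals cover counting error only. Alternatives were DESeq2 1.42.0, other scalings and filters, a replicate block, fits of fewer groups and leaving out each library.

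The 8 members are a whole gene family taken by name, but the choice of this family, the lists of regulators, targets and cell type markers, and the tests were made with earlier results of these data known. All 8 members are named in the text, with up to 6 called genes a list and comparison by absolute log2 fold change. For each member the genes of most similar pattern were taken by Pearson correlation of log2(CPM + 1) over the 10 group means.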

Additional observations from a re-analysis of the deposited data

Results flagged for a closer look

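These results were singled out because a contrast differed between stages or between markers by a direct test of the difference (edgeR's quasi-likelihood test with Benjamini-Hochberg adjustment). For this list, groups of 2 libraries were not searched for libraries that stand apart. The early elav libraries of replicate 2 stood apart by their hairpin share, as given above.

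Between the stages, the elav contrast of abd-A was larger at 18-22 h than at 6-8 h by 2.30 on the log2 scale (adjusted p = 0.0292). Between the markers at 18-22 h, the repo contrast was lower than the elav contrast for Ubx (-3.46, adjusted p = 0.00465), Antp (-3.42, adjusted p = 0.00125), Scr (-3.19, adjusted p = 0.0349), abd-A (-2.54, adjusted p = 0.00381) and the hairpin mir-993 (-3.91, adjusted p = 0.0058). Of 11 neuronal markers 10 had a lower repo than elav contrast at this stage as well, and their part in the Hox values was not tested. At 6-8 h the pros contrast of lab was lower than its elav contrast (-10.25, adjusted p = 0.0174). That value rests on 0.66 counts in pros-positive and 2.34 counts in elav-negative cells before rounding. The fit rounded each library, which left no counts in pros-positive cells, and the value is not to be read as a fold.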

How the results depend on the processing

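Of the 23 Hox calls, 23 remained with RLE scaling, DESeq2, no filter and the replicate block, 21 each with TMM from protein-coding features and with total-count scaling, 17 in fits of only the groups compared, and 17 without both early elav replicate 2 libraries, an alternative chosen after seeing the data. None changed sign. Relative to TMM, total-count scaling shifted the median of all genes by -0.83 to 0.68 on the log2 scale, depending on the comparison. Calls over all 11726 genes changed with the settings too. Total-count scaling called 1108 genes higher in the early elav sort, against 631 in the main fit, and 74 in the pros sort, against 141. In fits of only the groups compared the pros sort had 40 higher. There elav-positive over pros-positive had 168, against 777, and the late elav sort 1466, against 1035. DESeq2 called 414 lower in the pros sort, against 148, and 449 lower in early repo-positive over elav-positive cells, against 244. The cause of the changes below was not tested.

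In positive over negative cells the early elav count of 1 was 2 with total-count scaling and 0 without both early elav replicate 2 libraries. The pros count of 1 was 0 with total-count scaling and with only its groups, 2 with no filter, with DESeq2 and without both early elav replicate 2 libraries, and 0 to 2 without 1 library. The early repo-positive over elav-positive count of 1 was 2 with total-count scaling, with no filter and without the 4 pros libraries (also chosen after seeing the data), 3 with DESeq2, 0 without both early elav replicate 2 libraries and 0 to 1 without 1 library. The late count of 3 was 0 to 1 without 1 library, and the repo-positive over pros-positive count of 0 was 0 to 1. The elav-positive over pros-positive count of 3 was 0 with only its groups and 0 to 4 without 1 library.

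The stage difference of the elav contrast had 1 call, but 0 with total-count scaling and without both early elav replicate 2 libraries, 2 with no filter, with the replicate block and without the 4 pros libraries, 3 with DESeq2, and 0 to 1 without 1 library. Over all genes the main fit called 41 higher there, total-count scaling 11, no filter 41, the replicate block 55 and DESeq2 103. The early repo minus elav difference had 0 calls, and 1, of Antp, with total-count scaling, no filter, DESeq2 and the replicate block. Over all genes the main fit called 79 lower in that difference, total-count scaling 108, no filter 142, DESeq2 190 and the replicate block 93. The pros minus elav difference had 1, but 0 with only its groups and without both early elav replicate 2 libraries, and 0 to 2 without 1 library. The 7 hairpin calls became 15 with total-count scaling, 1 with TMM from all features, 13 without both early elav replicate 2 libraries and 4 to 12 without 1 library. The 18 regulator calls became 28 with DESeq2 and 10 to 21 without 1 library.

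Replicate numbers are shared across fractions. The correlation of deviations was 0.021 to 0.214 with 2 pairs a sort, above 0.1 in 3 of 5 sorts and highest in the early elav sort, where both replicate 2 libraries stood apart. The labels tie no number to a shared batch, so pairing was not taken as given. With the replicate block, Antp also passed in early elav-positive over pros-positive cells (adjusted p = 0.0447) and in elav-negative cells between stages (adjusted p = 0.0406), and so did the stage difference of Ubx (adjusted p = 0.0438) and the early marker difference of Antp (adjusted p = 0.0397, edgeR). Depth limits lab, pb and Dfd, with median counts of 7.2, 15.5 and 21.8 per library.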
